A study of Mus musculus with 48 samples.

Results

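Agmatine and citicoline were the compounds with the lowest protection ratios in a screen of candidate neuroprotective molecules on cultured mouse neurons. The labels give agmatine a ratio of 0.61 and citicoline a ratio of 0.81, and no other compound has a ratio below 0.85. Both were chosen by that ratio, with earlier results of these data known. Each was measured on 1 array, so they make up 2 of the 48 arrays. They were compared with 10 control arrays, of which 5 are mock controls and 5 are vehicle controls.

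RNA came from dissociated cortical neurons of CD-1 mice, an outbred strain, labelled as taken from whole brain and grown for 7 days in a serum-free neuronal medium. Each culture was held for 1 h with a compound or its control, exposed for 1 h to NMDA, the agonist that defines a class of glutamate receptors, in a hypotonic salt solution, and returned to medium with the same compound or control for 16 h. The controls were therefore exposed to NMDA as well, and no array used here comes from a culture without it. The agmatine culture received agmatine in water and is labelled receptor agonist, the citicoline culture received citicoline in water and is labelled free radical scavenger, and both are labelled non-protective. The mock controls received water and the vehicle controls received DMSO, a solvent. The sources used here give neither the doses nor the assay behind the ratio. The labels do not say that the arrays came from separate cultures, so the p-values measure only the spread between these arrays.

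Agmatine is the amine that forms when arginine loses its carboxyl group, and it is a neighbour of the polyamine pathway. It is known to block NMDA receptor channels and nitric oxide synthases and to bind imidazoline sites and alpha2-adrenoceptors. Citicoline is cytidine diphosphate linked to choline, the activated intermediate from which cells make phosphatidylcholine, and when given from outside it is broken down to cytidine and choline, which cells take up and use again. The molecules share no scaffold: one is a small guanidine and the other a nucleotide.

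With 1 array per compound, the spread in every test came from the 10 controls, and the lone array was assumed to vary like them. The 17815 probes that were detected, with a detection p under 0.01, on at least 6 of the 48 arrays were tested. Values are log2 intensities after background correction and quantile normalization, differences are log2 differences from the mean of the 10 controls with a 95% interval, and adjusted p is that of limma. A typical interval reached 0.58 on either side of the estimate for each compound. The citicoline array lay on chip 1 with mock control 1 and vehicle control 4, and the agmatine array on chip 4 with mock control 3, so a difference from the controls of the same chip could be given beside each value. The share of probes detected was 34.5% on the agmatine array and 38.97% on the citicoline array, the highest of the 48, against 29.3% to 38.3% on the controls. Vehicle control 1 stood apart from the other controls, with a mean over the neuron markers 1.05 above the control mean where the next control was 0.21 above it, and counts that turn on it are given with and without it.

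Fewer probes stood far from the controls on the agmatine array than on any other compound array. Among probes that lay outside the range of all 10 controls and differed from their mean by 1 or more, 17 were higher (0.0954% of the probes tested) and 8 were lower (0.0449%). This total of 25 was the lowest of the 38 compound arrays, whose median was 609.5 and whose highest was 2649. Citicoline had 82 such probes higher (0.46%) and 32 lower (0.18%), 114 in all, and 7 compound arrays had fewer. Of the other compounds labelled non-protective, Flecainide had 56, Baclofen 482, Ethyl Ferulate 767 and 4-PPBP 1421, so the non-protective label covered small and large totals. For the mean of agmatine and citicoline, 6 probes were higher by this measure (0.0337%) and 4 lower (0.0225%). The controls of the same chip are among the 10, so the probes of each compound keep their direction against them by the rule of selection. Against those controls, 10 of the 17 and 8 of the 8 agmatine probes still differed by at least 1. So did 55 of the 82 and 17 of the 32 citicoline probes. The median absolute difference was 0.166 for agmatine and 0.19 for citicoline, while the controls, each set against the mean of the other controls, lay between 0.152 and 0.309.

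**Figure D1:**
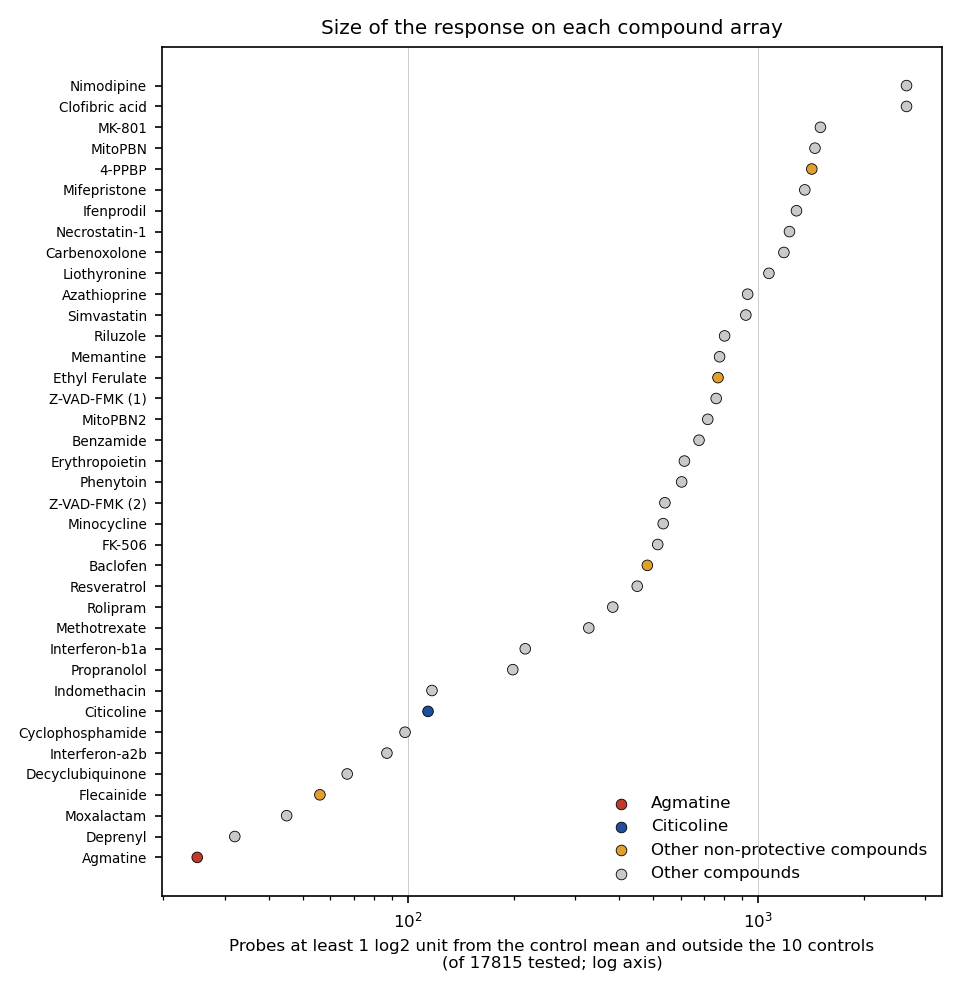
Each point is 1 of the 38 compound arrays, and the horizontal log axis gives the number of probes, of 17815 tested, outside the range of the 10 controls and 1 or more from their mean on the log2 scale. Agmatine stands at 25, the lowest total, and citicoline at 114, against a median of 609.5.

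In the limma fit, 2 probes passed an adjusted p of 0.05 for citicoline (0.0112% of those tested) and 0 for agmatine (0%). At an unadjusted p under 0.05 there were 731 probes (4.1%) for citicoline and 217 (1.22%) for agmatine, and the smallest adjusted p for agmatine was 0.9999. The passing probes belonged to Acod1, which rose, and to Csrp1, which fell. For the mean of both compounds, 1 probe passed (0.00561%), again that of Acod1, and 345 had an unadjusted p under 0.05 (1.94%).

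Acod1 encodes the enzyme that makes itaconate, a metabolite of activated macrophages and microglia. It measured 6.90 on the citicoline array and 6.07 on the agmatine array, against a lowest control of 5.21, a median of 5.35 and a highest of 5.49. Neither compound overlapped the controls, 3 of which had a detectable signal. Their range was narrow, and of the 36 other compound arrays 11 lay above it and 10 below it. Citicoline was the highest of the 48 arrays and agmatine ranked 3. The other 36 compound arrays lay between 4.76 and 6.20, Interferon-a2b being the highest.

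With citicoline Acod1 rose by 1.57 (SE 0.16, 95% interval 1.22 to 1.91, adjusted p = 0.0052). With agmatine the difference was 0.74 (0.39 to 1.09, adjusted p = 0.9999), and for the mean of both compounds it was 1.15 (0.90 to 1.41, adjusted p = 0.0054). With 3 of 10 controls detected, the control level and its SD of 0.090 are in part those of background, so these differences are not exact folds of expression. Against the controls of the same chip the difference was 1.59 for citicoline and 0.71 for agmatine. A second Acod1 probe, not tested because too few arrays detected it, was detected on the citicoline array at 6.31 and not on the agmatine array or on any control. The citicoline call was lost in 6 of 22 alternatives, among them median scaling (adjusted p = 0.128), mock controls only (0.125), vehicle controls only (0.425) and chip as a fixed block (0.277).

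Csrp1 encodes a LIM domain protein of the actin cytoskeleton. It measured 5.39 on the citicoline array and 7.91 on the agmatine array, against controls between 7.46 and 8.76 with a median of 8.10. Citicoline lay below every control and agmatine within their range. The fall with citicoline was -2.75 (SE 0.336, interval -3.48 to -2.02, adjusted p = 0.0185), and -2.78 against the controls of the same chip.

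The low Csrp1 signal was not limited to citicoline: Benzamide (4.39) and Clofibric acid (5.09) were lower still and not detected, and the next array above citicoline was 2.07 higher. Thus 3 of the 48 arrays had a low signal and all others stood at 7.46 or more. The gene has 1 tested probe, so no second probe could be set beside it, and whether that probe binds equally in every culture of this outbred strain was not tested. The call was lost without mock control 2 (adjusted p = 0.052), without mock control 4 (0.0547) and in 11 of 23 alternatives in all, with differences from -3.28 to -2.03.

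Saa3, an acute phase protein made by activated glia and macrophages, also stood above the controls on both arrays but did not pass the test. It measured 7.79 with citicoline and 7.16 with agmatine, against controls of 5.04, 5.84 and 6.25 (lowest, median and highest), so neither overlapped the controls. The difference was 1.97 for citicoline (1.17 to 2.78, adjusted p = 0.385) and 1.34 for agmatine (0.54 to 2.15, adjusted p = 0.9999). FK-506, a calcineurin inhibitor, was the only other compound array above both, at 8.16.

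**Figure D2:**
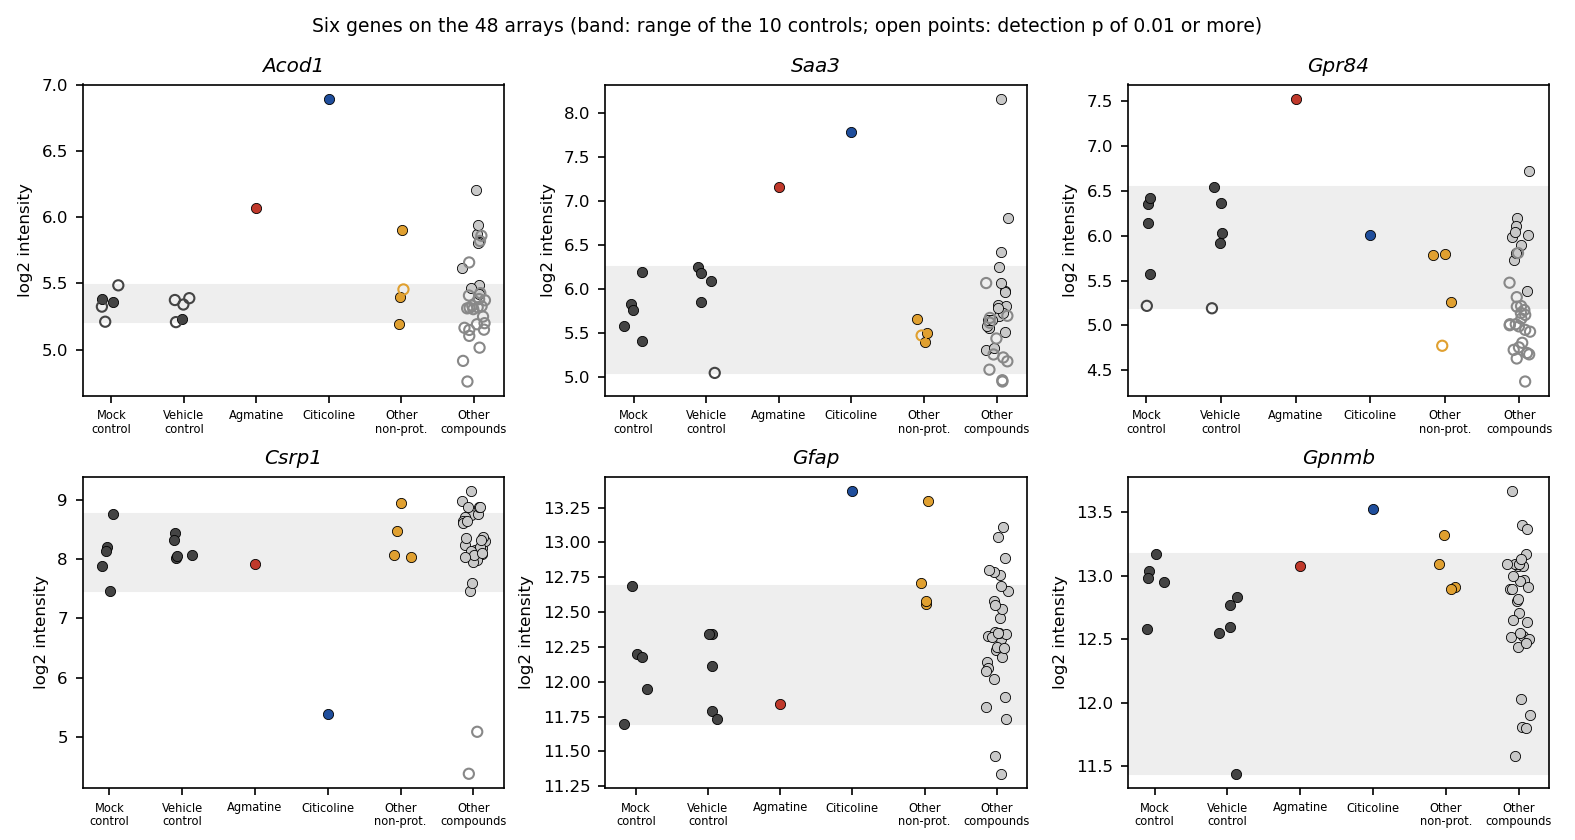
Log2 intensity of 6 genes on the 48 arrays, by group; the grey band is the range of the 10 controls and open points had no detectable signal. Citicoline lies above the band for Acod1, Saa3, Gfap and Gpnmb and below it for Csrp1, agmatine lies above it for Acod1, Saa3 and Gpr84, and 2 other compounds share the low Csrp1 signal.

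Because Acod1 and Saa3 stood above the controls on both arrays, their RefSeq promoter windows (GRCm38.p6, 250 bases before to 50 after the gene start) were searched on both strands for a kB-like motif GGANNTTCC, an AP-1 motif TGANTCA and a C/EBP motif TTGCNNAA, factors known to act on inflammatory genes. Capitals mark the matches. The Acod1 window lies at chr14:103046762-103047061 on the plus strand and the Saa3 window at chr7:46715627-46715926 on the minus strand.
Acod1: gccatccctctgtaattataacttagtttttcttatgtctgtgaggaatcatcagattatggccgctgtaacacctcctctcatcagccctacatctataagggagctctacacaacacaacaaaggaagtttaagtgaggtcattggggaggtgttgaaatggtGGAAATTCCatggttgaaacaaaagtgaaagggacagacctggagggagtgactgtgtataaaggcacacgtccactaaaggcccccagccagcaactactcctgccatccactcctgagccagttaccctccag
Saa3: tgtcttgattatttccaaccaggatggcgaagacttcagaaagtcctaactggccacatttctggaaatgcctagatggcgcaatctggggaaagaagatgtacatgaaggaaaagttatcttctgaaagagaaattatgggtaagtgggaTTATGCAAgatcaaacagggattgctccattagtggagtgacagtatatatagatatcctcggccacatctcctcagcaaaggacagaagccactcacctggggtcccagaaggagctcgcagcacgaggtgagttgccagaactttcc
The Acod1 window held the kB-like match at -85 relative to the start and the Saa3 window a C/EBP match on the other strand at -99, and neither held the AP-1 motif. Of 32851 windows of this length, 4.26% held the kB-like motif, 10.8% the C/EBP motif and 7.81% the AP-1 motif. A match describes the letters and does not show a bound site.

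The 10 genes with the smallest p for agmatine did not pass the test, and they are given with their values. Gpr84, a receptor for medium-chain fatty acids on microglia and macrophages, measured 7.53 against controls of 5.19, 6.08 and 6.54 (lowest, median and highest). It was the highest of the 48 arrays, and citicoline at 6.01 lay within the controls. The difference was 1.55 (0.56 to 2.55, adjusted p = 0.9999), and 2.31 against the chip's control.

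Cox7a1, a subunit of cytochrome c oxidase of muscle and heart, was 7.54 with agmatine, the highest of the 48, against controls of 6.55 to 6.98 (difference 0.75). Crabp1, which binds retinoic acid, was 6.54 against 5.46 to 6.10 (difference 0.75). The histone gene H2ac18 was 9.66 against 8.64 to 9.16 (difference 0.74), and its other tested probes differed by 0.66 and -0.42.

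On the low side, Kdm7a, a histone demethylase, measured 7.93 with agmatine against controls of 8.44 to 8.88 (difference -0.77, and -0.77 on its other tested probe). Cyp20a1, an orphan cytochrome P450, was 5.51 against 5.98 to 7.02 (difference -0.93). Snrpd1, a core protein of the spliceosome, was low with both compounds, at 10.38 with agmatine and 10.36 with citicoline against 10.75 to 11.31, as it was on 16 of the 36 other compound arrays. The uncharacterised gene 4930402H24Rik was 8.599, the lowest of the 48 arrays, against 9.02 to 9.78, and its 3 other tested probes differed by -0.35 to -0.01.

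**Figure D3:**
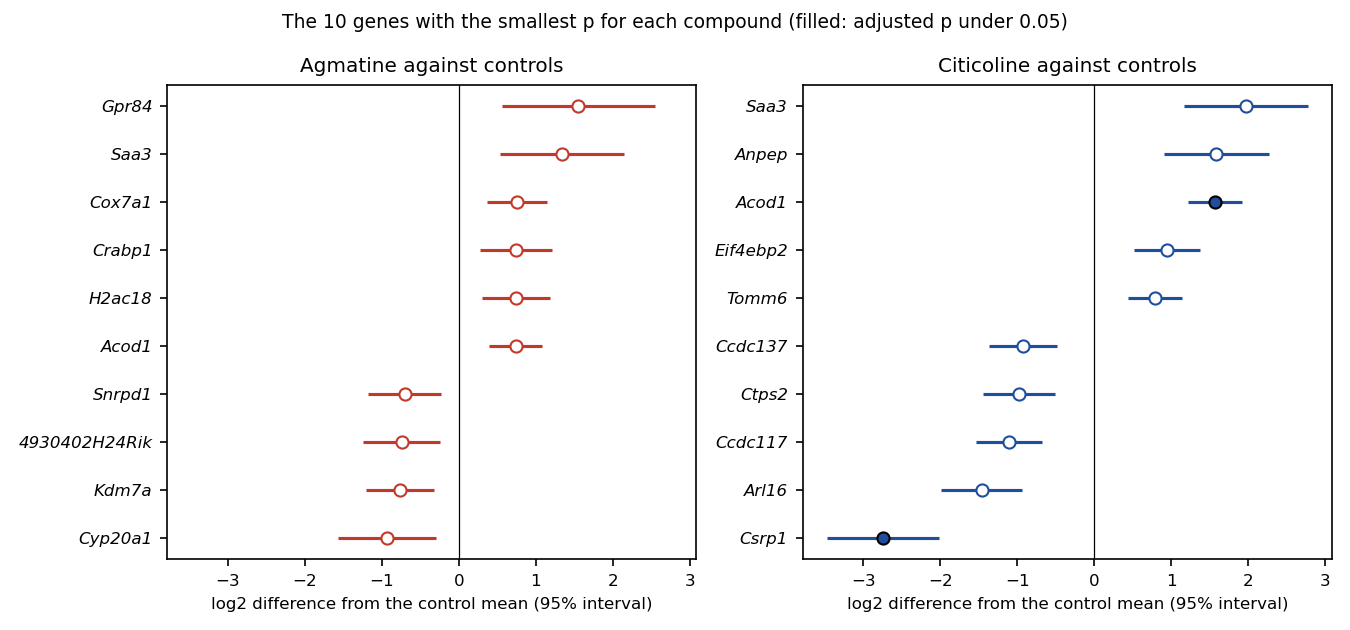
Log2 difference from the control mean, with its 95% interval, of the 10 genes with the smallest p for agmatine (left) and citicoline (right); filled points passed an adjusted p of 0.05. Only Acod1 and Csrp1 with citicoline are filled, and Saa3 and Acod1 are in both panels.

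Of the 16 named genes at least 1 higher and above all controls with agmatine, those that follow were picked after their values were seen, and the set also holds Lrrc46, Tfb1m, Cbr2 and Glrx. The class I histocompatibility genes H2-T22 and H2-Q6 differed by 2.11 each, at 8.56 and 8.17 against controls of 4.50 to 8.12 and 4.87 to 8.02. On a second probe agmatine lay above the controls for H2-T22 (7.24 against 6.04 to 6.95) and within them for H2-Q6 (8.47 against 4.59 to 8.71). A probe of the class I gene H2-D1 differed by 3.45, but its 10 controls already spanned 4.38 to 10.26, and the brighter H2-D1 probe differed by -0.51. These genes belong to a family of near-identical copies in an outbred strain, and how far the probes tell them apart was not tested.

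The interferon-induced Oasl2 was 6.66 on both compound arrays against controls of 4.66 to 6.39, a difference of 1.28 with agmatine and 1.29 with citicoline. Oas1g, another 2'-5' oligoadenylate synthetase, was 7.29 with agmatine against 5.63 to 6.98 (difference 1.01). The monocyte chemoattractants Ccl12 and Ccl2 differed by 1.20 and 1.04, at 6.86 and 6.07 against controls that reached 6.76 and 5.90. The lower set held 2 named genes. Parp12, itself an interferon-induced gene, was not detected with agmatine and stood at 5.09 against 5.79 to 6.72, and 1 probe of the water channel gene Aqp4 was 7.48 against 8.09 to 9.18 while the brightest Aqp4 probe differed by -0.0060.

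For citicoline, the other genes with the smallest p lay well away from the controls but did not pass. Arl16, a small GTPase of the ARF-like family, measured 6.81, the lowest of the 48 arrays, against controls of 8.03, 8.24 and 8.67 (lowest, median and highest), a difference of -1.47 (-1.99 to -0.94, adjusted p = 0.199). Agmatine at 7.73 was also below every control. The 36 other compound arrays were 7.05 to 8.62 with a median of 8.09, so 17 of them also lay under the lowest control.

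Anpep, an aminopeptidase of the cell surface, was 7.13 against controls of 4.81 to 5.90, a difference of 1.59 (0.91 to 2.26, adjusted p = 0.521). Of the 36 other compound arrays 26 were also above all controls, the 4 other non-protective compounds at 6.19 to 6.87 among them, whereas agmatine was 5.75 and lay within them. Eif4ebp2, which holds back cap-dependent translation, was 8.99 against 7.85 to 8.32 (difference 0.95), while agmatine at 7.67 was the lowest of the 48 arrays, and 32 of the 36 other compound arrays also lay above all controls. Tomm6, of the mitochondrial import pore, was 9.95 against 9.05 to 9.30 (difference 0.78), but 34 of the 36 other compound arrays lay above all controls too, and its other tested probes differed by -0.11 and 0.28. Ccdc117 and Ccdc137, genes with coiled-coil domains, differed by -1.11 and -0.93, and 13 and 23 of the 36 other arrays also lay below all controls.

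Of the 54 named genes at least 1 higher and above all controls with citicoline, the glial and phagocyte genes given first were picked after their values were seen, and the set also holds neuronal and other genes such as Map2, Sv2a, Krit1 and Tmem68. Gpnmb, a lysosomal glycoprotein of phagocytes, was above all controls on each of its 4 tested probes, with differences of 0.84, 1.28, 1.34 and 1.67. On the brightest probe citicoline stood at 13.53 and agmatine at 13.08, against controls of 11.44, 12.80 and 13.17 (lowest, median and highest), the lowest being vehicle control 1. With agmatine that probe lay within the controls, at a difference of 0.39, and of -0.087 from the control of its chip. On its 3 other tested probes agmatine lay above all controls, with differences of 0.78, 0.73 and 1.09, the last of which was 0.80 against the control of its chip. Itgax, an integrin of myeloid cells, was 7.23 against 4.62 to 6.91 (difference 1.32). Tlr2, a receptor for bacterial lipoproteins, was 8.18 against 6.46 to 7.76 (difference 1.07), and the haematopoietic GTPase Rac2 was 8.17 against 6.45 to 8.07 (difference 1.02).

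Gfap, the intermediate filament of astrocytes, was 13.37 with citicoline, the highest of the 48 arrays, and 11.84 with agmatine, against controls of 11.70, 12.14 and 12.69. The difference with citicoline was 1.27 (0.59 to 1.94) and 1.06 on the second probe, and agmatine lay within the controls on both. Xist, the noncoding RNA that silences an X chromosome, was 9.69 with citicoline against 7.27 to 9.09 (difference 1.46); the sex of the cultures is not given in the sources used here. The transcription factors Bach1 (1.38) and Zeb2 (1.01) and the chromatin factor Gatad2b (1.74) were also higher, although a second Gatad2b probe differed by -0.087.

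The 24 named genes at least 1 lower with citicoline included Lcn2, a secreted iron-siderophore carrier, which was 6.64 against 6.81 to 9.44 (difference -1.63). Dlk1, a membrane protein of the Delta-like family found on progenitor cells, was 6.94 against 7.13 to 9.41 (difference -1.26), and the histone gene H4c8 was below all controls on both of its tested probes (-1.15 and -1.11). Msmo1, an enzyme of cholesterol synthesis, was 9.67 against 10.25 to 11.03 (difference -1.11), and agmatine at 10.57 lay within the controls. The matrix genes Sparc and Col18a1 differed by -1.07 and -1.02.

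The pathways that handle the compounds themselves are described next, from lists of genes, and 0 of their members passed the test for either compound, with 1 polyamine, 1 phosphatidylcholine, 4 pyrimidine and 0 phospholipase genes at an unadjusted p under 0.05 with citicoline and 1 gene, a sphingomyelin synthase, with agmatine. As background, 5.13% of the 9869 genes lay above all 10 controls and 6.78% below them with agmatine, and 6.74% above and 10.2% below with citicoline. Over all probes the shares were 5.3% and 6.74% with agmatine and 7.01% and 9.8% with citicoline. The median difference over all genes was -0.0076 for agmatine and -0.013 for citicoline.

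Of 17 measured polyamine and arginine genes, 2 lay above and 2 below all controls with agmatine, and the list's median difference was 0.076. Dohh, which completes the hypusine modification of a translation factor, was 7.27 against 6.63 to 7.25 (difference 0.41). Azin1, which protects ornithine decarboxylase from antizyme, was 5.41 against 5.47 to 6.14 (difference -0.37). On its other tested probe, not detected with agmatine, Azin1 lay within the controls (difference -0.48). Smox, which oxidises spermine, was 7.86 against 7.91 to 8.58 (difference -0.29). On its other tested probes agmatine lay within the controls, at differences of -0.053 to 0.27. The intervals of the Dohh difference, and of the first Azin1 and the first Smox difference, included 0.

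With citicoline 2 polyamine genes were above the controls and 1 below (median 0.095). Sat1, which acetylates spermidine and spermine for breakdown or export, was 10.49 against controls of 9.48, 9.95 and 10.24, the second highest of the 48 arrays, whereas agmatine at 9.77 lay within the controls. The difference with citicoline was 0.56 (0.02 to 1.09, adjusted p = 0.998). None of the 9 measured genes of imidazoline sites, alpha2-adrenoceptors and nitric oxide signalling lay outside the controls with either compound (medians -0.030 and -0.019). Gucy1a1, a subunit of the receptor for nitric oxide, was 7.95 with agmatine and 8.90 with citicoline, within controls of 7.77 to 9.17.

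Of 18 measured genes of phosphatidylcholine synthesis and choline transport, 3 lay above all controls and 0 below with citicoline, and 1 above and 1 below with agmatine. The mean difference over the list was 0.183 with citicoline, the highest of the 48 arrays, against -0.093 to 0.106 on the controls, and 0.019 with agmatine. Against the controls of the same chip the median of the list was 0.019 for citicoline, where it was 0.14 against all controls. On chip 1 mock control 1 and vehicle control 4 had list means of 0.093 and 0.079, and Minocycline, Flecainide and Phenytoin had 0.181, 0.128 and 0.030. Over all chips the other compound arrays ran from -0.156 to 0.181, with Azathioprine on chip 5 at 0.133 and Propranolol on chip 2 at 0.128. The part of the chip in the high mean was not tested.

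Chka, which puts the first phosphate on choline, measured 6.57 with citicoline and 5.395 with agmatine against controls of 5.26, 5.77 and 6.44. Citicoline was above every control and agmatine was second lowest of the 48 arrays, at differences of 0.83 (0.08 to 1.58) and -0.34 (-1.09 to 0.41). On that probe 10 of the 36 other compound arrays also lay above all controls. On a second Chka probe both compounds lay within the controls, citicoline at 5.84 and agmatine at 5.89 against 4.596 to 6.12. Pcyt1b, which makes CDP-choline itself from phosphocholine, was 7.94 with citicoline against 6.96 to 7.71 (difference 0.51). For this gene 16 of the 36 other compound arrays also lay above all controls, 9 of them above citicoline. Lpcat3, which remodels phosphatidylcholine chains, was 8.36 against 6.88 to 8.33 (difference 0.48), and the choline transporter gene Slc44a1 was 9.52 against 8.96 to 9.54 (difference 0.29). On the other tested Slc44a1 probes citicoline lay above the controls, at 9.15 against 8.32 to 9.02 and at 7.18 against 6.67 to 7.09.

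Of 18 measured phospholipase and sphingomyelin genes, 1 lay above and 3 below the controls with agmatine, and 2 above and 2 below with citicoline. The median difference was -0.11 with agmatine and 0.053 with citicoline. Sgms1, which makes sphingomyelin from phosphatidylcholine, was 8.09 with agmatine against 8.27 to 8.89, a difference of -0.47 (-0.90 to -0.03), and citicoline at 8.61 lay within the controls. Pld3, a lysosomal member of the phospholipase D family, was above all controls with both compounds, at 9.87 and 10.01 against 8.95 to 9.77. It was also above all controls on 13 of the 36 other compound arrays.

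Of 19 measured pyrimidine and nucleotide salvage genes, 10 lay below all controls and 1 above with citicoline, against 10.2% below and 6.74% above over all genes. The list's median was -0.26, and its mean of -0.258 lay under the lowest control of -0.114. With agmatine 0 lay above and 2 below, and the median was 0.064. Against the controls of its chip the median for citicoline was -0.14.

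A low mean over these genes was common in the series: citicoline ranked 40 of 48, the other arrays reached -0.386, and the 4 other non-protective compounds lay between -0.28 and -0.11. Agmatine had the rank of 3, at 0.091, and lay with the controls.

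Ctps2, which makes cytidine triphosphate, measured 6.55 with citicoline and 7.69 with agmatine against controls of 7.29, 7.49 and 7.83, a difference of -0.98 with citicoline (-1.45 to -0.51, adjusted p = 0.813), and 25 of the 36 other compound arrays also lay below all controls. Umps, which forms uridine monophosphate, was 7.69 against 7.99 to 8.65 (difference -0.70, -1.22 to -0.18), lay below all controls on 17 of the 36 other arrays too, and lay within the controls on a second probe. Dhodh, the mitochondrial dehydrogenase of the same pathway, was 7.56, the lowest of the 48 arrays, against 7.88 to 8.75 (difference -0.78, -1.40 to -0.16).

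Tk1, a thymidine kinase of dividing cells, was 8.02 with citicoline and 9.36 with agmatine against controls of 8.08 to 9.42, at differences of -0.77 and 0.56. For Tk1, 20 of the 36 other compound arrays also lay below all controls. On its other tested probe both compounds lay within the controls. The exception on the high side was Entpd2, an ecto-enzyme of glia that removes phosphate from extracellular ATP, at 9.40 with citicoline against 8.07 to 8.77 (difference 1.00, 0.43 to 1.56). For Entpd2, 8 of the 36 other compound arrays also lay above all controls and 10 below them. Tk1 is itself a gene of dividing cells, whose other genes also differed between the arrays (means of 0.375 with agmatine and -0.463 with citicoline), and the part of dividing cells in the pyrimidine list was not tested.

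**Figure D4:**
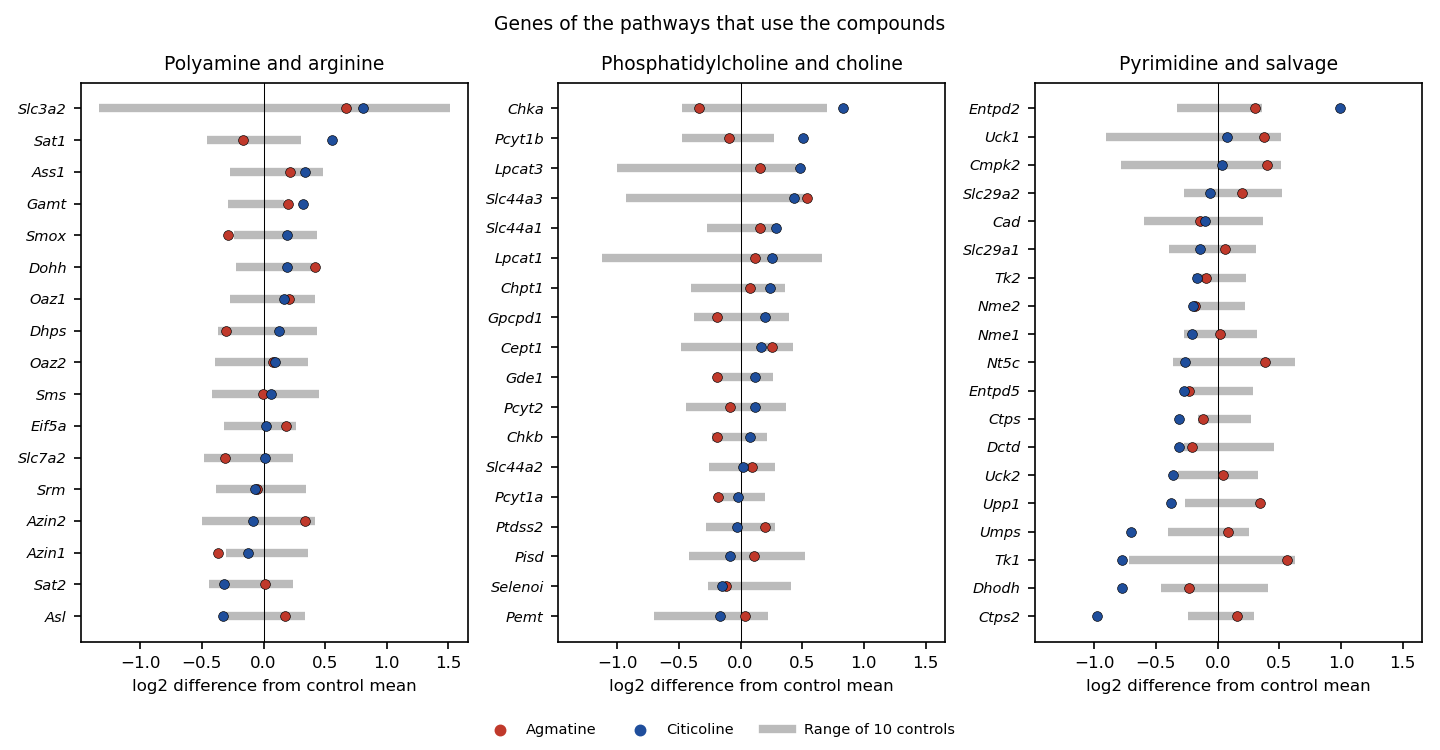
Log2 difference from the control mean of each measured gene of 3 pathways, for agmatine and citicoline; grey bars span the 10 controls. With citicoline 10 of 19 pyrimidine genes lie left of the bars and Entpd2 right of its bar, and 3 of 18 phosphatidylcholine genes lie right of theirs.

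Cell type markers and response genes were then followed as lists, each as the mean difference of its measured genes on every array. In bulk RNA, fewer cells of a type and less RNA per cell cannot be told apart. The counts of list genes outside the 10 controls are set against the shares of all genes. With agmatine 5.13% of all genes lay above and 6.78% below, and with citicoline 6.74% lay above and 10.2% below. Markers of the labelled cell type were present: all 10 controls detected neuronal genes such as Snap25 (median 9.85) and Grin2b (7.98), and they also detected astrocyte and microglial genes, Gfap at 12.14 and Aif1 at 8.10. The cultures therefore held glial RNA beside neuronal RNA.

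Neuron markers lay within the range of the 10 controls with both compounds. Agmatine had a mean of -0.249 and citicoline one of 0.275 over 18 genes, against -0.436 to 1.05 on the controls, and 0 of the 18 genes lay outside the 10 controls with either. Without vehicle control 1 the highest control was 0.207, and 6 of the 18 genes lay above the other 9 controls with citicoline, where 10.2% of all genes lay above them and 12.1% below (5.49% and 7.24% with agmatine). The other compounds reached 1.75, and agmatine ranked 44 and citicoline 26 of 48. With citicoline 17 of the 18 differences were positive, and the median was 0.31 against all controls and 0.65 against those of its chip, whose means were -0.131 and -0.363. With agmatine 16 of 18 were negative, at medians of -0.32 and -0.21.

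Synapse genes ranked alike, with agmatine 45 (mean -0.231) and citicoline 25 (0.257), and controls of -0.306 to 0.967. Sv2a, a synaptic vesicle protein, was 9.71 with citicoline against 8.21 to 9.54 (difference 1.07, 0.31 to 1.83) but within the controls on a second probe, and Nlgn2, an adhesion protein of inhibitory synapses, was 9.47 against 8.48 to 9.38 (difference 0.68). Without vehicle control 1 the count above the controls was 4 of 20, where it was 2 with all 10. The median with citicoline was 0.17 against all controls and 0.38 against those of its chip. With agmatine, Homer1, a scaffold of the postsynaptic density, was 7.88, the lowest of the 48 arrays, against 7.98 to 8.94 (difference -0.37).

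Neurod2, a transcription factor of excitatory neurons, was also lowest on the agmatine array, at 5.30 and not detected, against 5.56 to 8.25. Pvalb, the parvalbumin of some interneurons, was highest there at 9.23 against 8.16 to 9.01 (difference 0.61). Of 9 measured glutamate receptor genes 0 lay outside the controls with either compound. Without vehicle control 1, 6 of the 9 lay above the controls with citicoline, among them Gria1 at 10.07 and Grin2b at 8.68. Over all genes 10.2% lay above these other controls. The list mean with citicoline was 0.376, within the 10 controls (-0.453 to 0.708), and ranked 21 of 48. With agmatine it was -0.113, at rank 44. The other arrays reached 1.17, and the 4 other non-protective compounds lay between 0.040 and 1.17. The median of this list with citicoline was 0.37 against all controls and 0.52 against those of its chip.

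**Figure D5:**
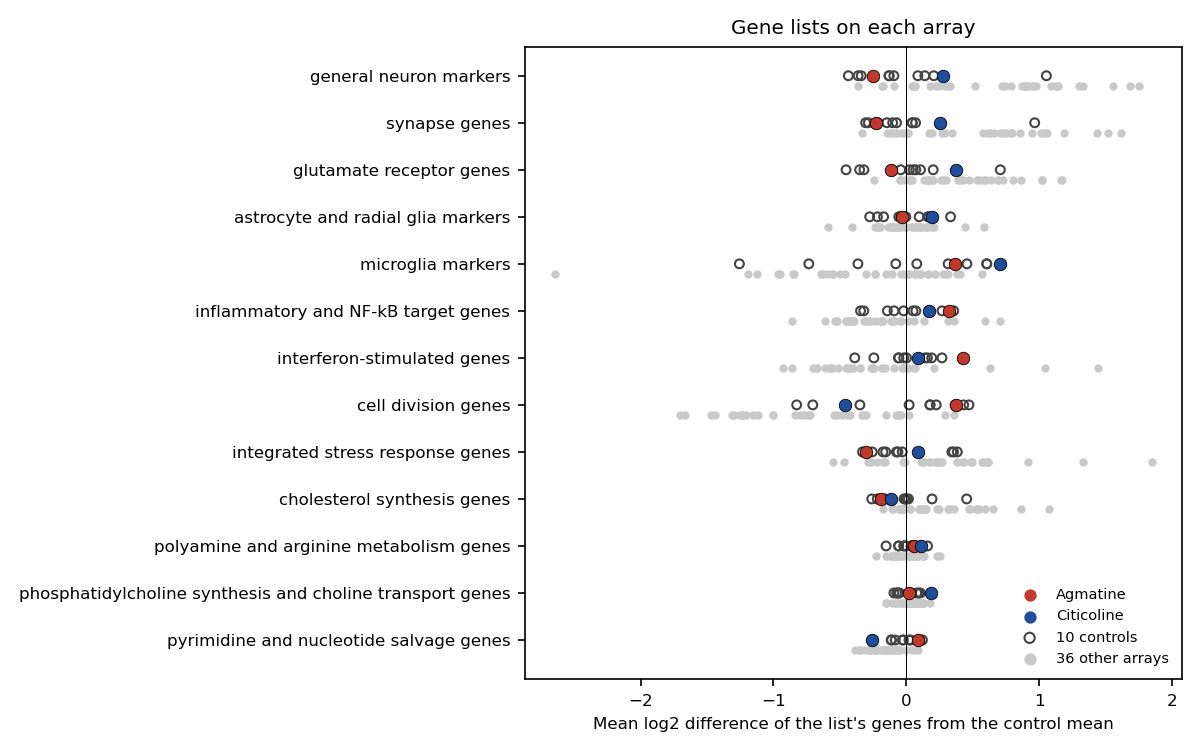
Mean log2 difference from the control mean of the measured genes of 13 lists on each of the 48 arrays. Citicoline is highest for microglia markers (0.706) and the phosphatidylcholine list (0.183) and lies left of all controls for the pyrimidine list, and agmatine lies right of all controls for interferon-stimulated genes (0.424).

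Microglia markers had their highest mean of the 48 arrays with citicoline, 0.706, and agmatine ranked 9 at 0.365, against controls from -1.26 to 0.606. All 8 measured genes had a positive difference with citicoline (median 0.80), and 2 lay above all controls. These were Trem2, a lipid receptor of microglia, at 11.03 against 8.70 to 10.80, and C1qb, a complement subunit, at 10.88 against 8.87 to 10.83, each the highest of the 48 arrays. Against the controls of chip 1 the median of the list was 0.21, and 0.11 for agmatine against the control of chip 4.

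Aif1, a microglial calcium-binding protein, was higher with agmatine than with citicoline, at 9.01 and 8.34 against 7.47, 8.10 and 8.59. Its difference with agmatine was 0.93 (0.25 to 1.62), and 0.62 on the second probe, which lay within the controls. The microglia list and Acod1, Saa3 and Gpnmb stood high on the same arrays, and the part of microglial RNA in Acod1, Saa3, Gpr84 and Gpnmb was not tested.

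Astrocyte markers gave a mixed picture with citicoline, with 3 of 13 genes above and 2 below the controls (mean 0.196, controls -0.275 to 0.334), Gfap and Aqp4 (12.19 against 11.38 to 12) among those above. On the other tested Aqp4 probes citicoline lay within the controls. Against the controls of its chip the median of the list was 0.0031. With agmatine 0 of 13 lay outside. Of 10 oligodendrocyte lineage genes, 3 lay above the controls with citicoline, including Sox10, a transcription factor of the lineage, at 10.68 against 9.42 to 10.32 (difference 0.84, 0.21 to 1.46). The mean of these 10 genes with citicoline was 0.336, within controls of -0.479 to 0.368, and ranked 11 of 48.

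Interferon-stimulated genes were, of the 31 lists, the one with the most members above all controls with agmatine, 8 of 14, against 5.13% of all genes. The mean was 0.424, with a rank of 4 of 48, against -0.388 to 0.269 on the controls and up to 1.44 on the other arrays. Citicoline had a mean of 0.088, with 4 genes above and 1 below. Against the control of its chip the median for agmatine was 0.27, where it was 0.40 against all controls.

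Irf7, a transcription factor of this response, was 5.81 with agmatine and 5.89 with citicoline against 5.18 to 5.76, and 3 of the 10 controls detected it. Bst2, the antiviral membrane protein tetherin, was 11.39 with agmatine and 10.41 with citicoline against 9.99 to 11.16. Psmb8, an immunoproteasome subunit, was 10.21 with agmatine, above controls of 9.41 to 10.14, and 9.31 with citicoline, below them. On its 2 other tested probes agmatine lay within the controls and citicoline below them. Of the 36 other compound arrays, 2 lay above all controls and 19 below them on the first Psmb8 probe. Irf9, which carries the interferon signal to DNA, was 8.12 with citicoline and 7.94 with agmatine against 7.46 to 7.81. For Irf9, 15 of the 36 other compound arrays also lay above all controls, 8 of them above agmatine. None of the 14 passed the test, and 1 had an unadjusted p under 0.05 with agmatine and 3 with citicoline.

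Among 13 inflammatory and NF-kB target genes, 2 lay above the controls with agmatine, and 3 above and 1 below with citicoline (means 0.324 and 0.172, controls -0.344 to 0.357). Nfkb2, a subunit of NF-kB, was above with both, at 5.97 and 5.90 against 4.66 to 5.89. Tnfaip3, which shuts off NF-kB signalling, was 7.10 with citicoline against 5.36 to 6.73 (difference 0.81). Ccl5, a chemokine for T cells, was 6.01 with citicoline against 4.604 to 5.86 (difference 1.04), and 5.75 with agmatine.

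Immediate early genes, which neuronal activity and stress switch on, lay within the controls with agmatine, and 3 of 10 lay above them with citicoline. The list mean with citicoline was 0.268, within controls of -0.318 to 0.354, and ranked 5 of 48. Junb was 7.69 against 6.42 to 7.58 (difference 0.80, 0.10 to 1.51), Fos was 9.18 against 7.69 to 9.12, and Atf3 was 7.67 against 5.79 to 7.50. Against the controls of chip 1 these genes differed by 0.37, 0.41 and 0.55.

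Genes of the integrated stress response had a mean of -0.303 with agmatine, ranking 45 of 48, with 4 of 17 below the controls. Slc7a5, an amino acid transporter, was 9.67, the lowest of the 48 arrays, against 9.84 to 11.40 (difference -0.70), and the cystine transporter gene Slc7a11 was just under the lowest control, at 6.585 against 6.59 to 7.99 (difference -0.76). On its other tested probe, not detected with agmatine, Slc7a11 lay within the controls (difference -0.089). On the first probe 6 of the 36 other compound arrays also lay below all controls. Chac1, which degrades glutathione, was 7.26, within controls of 7.24 to 9.21. Controls reached -0.329, so the list mean itself lay inside their range. The median was -0.26 against all controls and -0.59 against the control of its chip, whose own list mean was 0.343.

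Cholesterol synthesis genes likewise ranked 46 of 48 with agmatine, with 13 of 14 differences negative and 4 genes below the controls, at a mean of -0.192 within controls of -0.26 to 0.455. Sqle, squalene epoxidase, was 10.63 against 10.65 to 11.55, the lowest of the 48 arrays, and Insig1, which retains the sterol sensor in the endoplasmic reticulum, was just under the lowest control, at 7.098 against 7.10 to 8.24. On a second tested probe of each gene agmatine lay within the controls, at differences of 0.051 for Sqle and -0.47 for Insig1. Of 19 proteasome genes, 6 lay below the controls with citicoline and 1 with agmatine, against 10.2% and 6.78% of all genes. The mean of this list with citicoline was -0.169, within controls of -0.276 to 0.181, and ranked 36 of 48, and other compounds reached -0.421. Psma1, a subunit of the core ring, was 9.91 with citicoline, the lowest of the 48 arrays, and 10.30 with agmatine against 10.31 to 11.20.

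Cell division genes went opposite ways on the arrays. All 15 measured genes had a positive difference with agmatine (mean 0.375, rank 3 of 48) and 14 of 15 a negative one with citicoline (mean -0.463), and both means lay within controls of -0.825 to 0.472. The medians were larger against the controls of the same chip, 0.78 for agmatine where it was 0.37 against all controls, and -0.92 for citicoline where it was -0.54. Bub1b, a spindle checkpoint kinase, was 7.54 with agmatine, the highest of the 48 arrays, against 5.95 to 7.53, and 6.46 with citicoline. Tyms, thymidylate synthase, was 8.93 with agmatine and 7.76 with citicoline against 7.95 to 9.28. The controls themselves spread over more than 1 log2 unit in this list.

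Agmatine and citicoline were compared with each other as the 1 pair of compounds here, at the same times, with the doses unknown. In the limma fit 0 of 17815 probes differed (0%), with 625 at an unadjusted p under 0.05 (3.51%) and a smallest adjusted p of 0.727. A typical 95% interval of this difference reached 0.79 to either side, so the absence of a call does not show that the compounds acted alike. The median absolute difference between the arrays was 0.239.

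The smallest p belonged to Csrp1, 2.52 higher with agmatine (1.54 to 3.50), which is the low citicoline signal described above. Gatad2b was 6.19 with agmatine and 8.49 with citicoline (difference -2.30, -3.43 to -1.17), and Bach1, a repressor of haem and antioxidant genes, was 5.51, the lowest of the 48 arrays, and 7.74 (difference -2.23, -3.36 to -1.10), the compounds lying on opposite sides of the controls for each. Of the 36 other arrays, 28 lay above all controls for Gatad2b and 27 for Bach1, on the side of citicoline. Nckap1, a part of the actin-regulating WAVE complex, was 9.04, again the lowest of the 48, and 10.03 (difference -0.98). Mrpl12, of the mitochondrial ribosome, was 10.61, the highest of the 48, and 9.63 (difference 0.98).

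Against the 4 other compounds labelled non-protective, the mean of agmatine and citicoline gave 0 calls in limma (0%), with 586 probes at an unadjusted p under 0.05 (3.29%). The smallest adjusted p was 0.0602, for Saa3, which lay between 5.395 and 5.65 on those 4 arrays (difference 1.97, 1.37 to 2.57). Acod1 was next, at 5.19 to 5.90 on the 4 arrays (difference 1.00, 0.64 to 1.35, adjusted p = 0.185). Ccl5 (difference 1.12) and Cxcl16, a chemokine and scavenger receptor (difference 0.77), were also among the 10 smallest p.

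Genes lower than in the 4 other compounds included Exosc2, of the RNA exosome (difference -0.56), Ap4e1, of an adaptor complex (difference -0.70), and Mzt1, of the gamma-tubulin ring (difference -0.83). In list means, the microglia genes of the 4 other compounds lay between -0.843 and 0.214, under both agmatine and citicoline, and the interferon-stimulated genes between -0.401 and -0.026, also under both. The inflammatory list lay between -0.456 and -0.107 on those arrays. The neuron markers lay between -0.176 and 1.33, above agmatine in each case. Those 4 arrays share the controls with agmatine and citicoline, and no test was made of the list means.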

How the data were processed

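The platform was the Illumina MouseWG-6 bead array, with 48 arrays on 8 chips of 6. The authors deposited 1 mean bead intensity per probe on a linear scale, not scaled between arrays, exported with BeadStudio per the submitters' processing notes, with version and settings not given in the sources used here. Per the file headers each intensity is followed by a detection p-value, whose steps match 1603 negative control beads. In the series matrix the authors gave the same intensity values less 1 constant per array, and 8 of them depart from it by over 0.1. Every column was matched to a sample.

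The intensity of 46632 probes was corrected with limma 3.58.1 (nec, offset 16, from the detection p-values), then quantile normalized, and log2 values were taken, in R 4.3.3 (package data.table, version 1.17.8). Probes with a detection p under 0.01 on at least 6 arrays were tested (17815 probes, of which 13937 carry the symbol of 9869 genes). Symbols come from an old platform annotation: 29976 probes have 1, 10 have several and 16646 have none. A gene was represented by its brightest probe. Arrays give no counts, and their number limits the precision.

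Groups followed the labels. Agmatine, citicoline and the controls entered 1 limma fit (lmFit, eBayes) with 3 means, and the 4 other non-protective compounds were added for that comparison. P-values are two-sided, adjusted by Benjamini and Hochberg over all probes tested with a threshold of 0.05. Named genes were the 10 with the smallest p in each comparison, since fewer than 5 passed, and the passing ones. Genes named from the counts by size or from lists were chosen after their values were seen. The 2 compounds and the gene lists were chosen with earlier results of these data known. The fit was tested on simulated data. Figures were drawn with matplotlib 3.10.9. Alternatives covered background correction, offset, the series matrix, median scaling, probe filters, the arrays that give the spread, each kind of control, chip, position, a variance trend and leaving out each control.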

Additional observations from a re-analysis of the deposited data

Results flagged for a closer look

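In 13 of 121 values examined, the highest or lowest control lay further from the next control than Dixon's 95% critical value allows for 10 arrays, and chance alone gives about 1 such gap in 20 groups. Vehicle control 1 was the array in 11 of them. It was highest for the neuronal genes Syn1 (10.10, next control 8.91), Sv2a (9.54, next 8.83), Nlgn2 (9.38, next 8.91), Syn2 (9.35, next 8.37), Neurod2 (8.25, next 6.45) and Gria1 (10.68, next 9.77). Its list means were highest for neuron markers (1.055, next 0.21), synapse genes (0.967, next 0.070) and excitatory neuron markers (0.765, next 0.076). It was lowest for the microglial and phagocyte genes Trem2 (8.70, next 9.84) and Gpnmb (11.44, next 12.55). The counts of neuronal, synapse and glutamate receptor genes outside the controls with citicoline rest on this array, as the values without it above show.

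Mock control 3, which shared chip 4 with agmatine, was highest for Aqp4 (12, next 11.66). Mock control 2 had the lowest mean over motile cilia genes (-0.839, next -0.089).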

How the results depend on the processing

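No paired analysis was possible because each compound has 1 array with no replicate number to share with the controls, and mock and vehicle controls were not compared. For agmatine the count of 0 became 1 with no filter on dim probes (Ifit3), 1 with chip as a fixed block (Psmc1) and 25 by the rule of size. For citicoline the count of 2 became 1 without background correction, with offset 50 and with detection on at least 5 controls, 4 with no filter, 3 with chip as a random block (Msi2 added), and 0 with median scaling, with the spread of all 48 arrays, with mock or vehicle controls only and with chip as a fixed block. It ranged from 1 to 2 when single controls were left out, being 1 without mock control 2 and without mock control 4, and was 114 by size. The count stayed at 2 with other members with the series matrix (Msi2 and Csrp1) and with position as a covariate (Ptbp2 and Acod1). For the mean of both, the count of 1 became 0 with the series matrix, median scaling, the stricter filter (Acod1, detected on 3 controls, was then not tested), the 48-array spread, either control group alone or chip as a fixed block, 3 with no filter, 2 with position as a covariate and 10 by size. Agmatine against citicoline gave 1 call with no filter, the second Acod1 probe. Against the other non-protective compounds there was 1 call without background correction, with offset 50 and with mock controls only, 2 with no filter and with chip as a random block, and 0 to 1 when single controls were left out (1, Saa3, without vehicle control 2). Chip as a fixed block could not be fitted there. The brightest Gpnmb probe with agmatine reversed against the control of its chip and with chip as a fixed block (-0.087 each). Fewer controls leave fewer degrees of freedom, and the cause of the other changes was not tested. Median scaling moved the median of all genes to 0.245 for agmatine and 0.444 for citicoline, and relative to that median 88 of 88 single-compound results of named genes kept their sign. These genes were named by small p or after their values were seen, so their kept signs say little. Of 62 list medians, not taken relative to all genes, 49 moved by at least the SD of the controls' list means with median scaling. With chip as a fixed block 14 did. Relative to all genes, the astrocyte median with citicoline went from 0.079 to -0.079. The correlation of arrays on 1 chip was 0.265. Signal near background limits Acod1, which 17 of 48 arrays detected. It also limits Oasl2, Irf7, Ccl2, Ccl5 and Nfkb2, each detected on at most 4 of the 10 controls.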
